A study of Mus musculus with 6 samples.

Results

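The genes described here encode the protein subunits of the respiratory chain and ATP synthase that are carried in the nucleus, together with the NDUFAF assembly factors of complex I. They were chosen by gene symbol alone, as the rows of the count table whose symbol began with Ndufa, Ndufb, Ndufc, Ndufaf, Ndufs or Ndufv, Uqcr, Cox4 to Cox8 or Atp5, or was one of the Sdh genes a to d or Cyc1, and 1 gene named as a pseudogene was left out. This gave 95 of the 22377 genes in the table, made up of 40 subunits of complex I, 8 complex I assembly factors, 4 subunits of complex II, 9 of complex III, 17 of complex IV and 17 of complex V. Ndufa4 and its paralog Ndufa4l2 were placed with complex IV, since NDUFA4 protein is known as a subunit of cytochrome c oxidase despite its name.

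The respiratory chain lies in the inner mitochondrial membrane. Complex I (NADH dehydrogenase) and complex II (succinate dehydrogenase, which is also an enzyme of the tricarboxylic acid cycle) pass electrons to ubiquinone, complex III passes them on to cytochrome c, and complex IV gives them to oxygen. Complexes I, III and IV pump protons, and complex V, the ATP synthase, uses the proton gradient to make ATP. Most subunits are encoded in the nucleus and a small set in mitochondrial DNA, so that both genomes contribute to every complex other than complex II. In macrophages, oxidative phosphorylation is usually described as higher in alternatively activated cells, whereas macrophages activated by bacterial products rely more on glycolysis.

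The libraries came from subcutaneous LLC tumors, which grow from the Lewis lung carcinoma line of the mouse. The 3 libraries titled wt are called wt here, and the 3 titled ko, whose treatment is given as knockdown, are called the libraries labelled ko. The study describes its RNA sequencing as a comparison of CD45+ CD11b+ F4/80+ tumor-associated macrophages (TAMs) sorted from Npm1+/+ and Npm1+/- mice, of both sexes, 6 to 8 weeks old when injected and killed 2 weeks later, with the allele carried by the host and not by the tumor line, whereas the labels name tumor tissue as the source. The labels number the libraries as separate biological samples and do not say whether animals were pooled, so p-values measure the spread between these samples. For its heatmap of these data the study gives fewer individual mice than there are libraries in a group, so the number of animals behind each group is uncertain. Npm1, the targeted gene, had 142, 380.2 and 381 CPM (counts relative to the library total, scaled by the TMM method) in wt replicates 1, 2 and 3, and 441, 499 and 343 in the libraries labelled ko. It was not lower in the latter (log2 fold change 0.51, adjusted p = 0.436, by edgeR's quasi-likelihood F-test and the Benjamini-Hochberg method), which goes against the label, and every direction below is that between libraries as labelled.

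Total counts were between 36550775 and 38147320 per library, and a count of 0 allows up to 3 counts, or 0.0716 to 0.0846 CPM, for counting error only. Wt replicate 1 stood apart, at -108 on a first principal component that held 67.99% of the variance over all genes tested, with the other 5 libraries between -4.54 and 52.0. The sorting markers were present in every library, and their estimates in the libraries labelled ko were -0.09 for Ptprc (CD45), -0.49 for Itgam (CD11b) and -0.49 for Adgre1 (F4/80) on the log2 scale, with adjusted p-values of at least 0.331 (edgeR). No gene of the 13884 tested passed an adjusted p of 0.05 in edgeR (0%), 2112 had an unadjusted p under 0.05, and DESeq2 called 36. Fold changes are log2 of the libraries labelled ko over wt unless stated otherwise.

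Promoter sequences are shown first because they are a feature of the members that the choice by symbol did not use. NRF1, the ETS factor GABPA (also named NRF2) and YY1 are textbook regulators of nuclear genes for mitochondrial proteins. RefSeq promoter windows of GRCm38.p6, from 250 bases before to 50 after the start of transcription, were found for 76 members (81 windows), and were searched on both strands for the cores GCATGCG (NRF1), CCGGAAG (ETS) and AAGATGG (YY1). The NRF1 core overlaps its own reverse complement CGCATGC, and the end of the ETS core shares 3 letters with the start of the YY1 core. NRF1 letters were in 16.05% of member windows against 3.583% of all 32851 windows, ETS letters in 23.46% against 8.858%, and YY1 letters in 14.81% against 6.338%. These are letter matches and not measured sites, and AAGATGG holds the ATG of a start codon, so that matches just after the start may lie at the beginning of the coding sequence. The set of all windows was not matched to the members for base composition or expression. At least 1 of the cores was found in 36 members, and NRF1 and ETS letters were both found in 6. The examples below are members whose values are described later, with the core in capitals.
Ndufaf4, chr4:24897962-24897988, plus strand, NRF1: agatgtctgcGCATGCGcctgtgcgga
Atp5g2, chr15:102671071-102671097, minus strand, NRF1: ctccggccgcGCATGCGcagagccttc
Sdhb, chr4:140961207-140961233, plus strand, NRF1: agcccagtggGCATGCGccctacgggc
Sdhb, chr4:140961267-140961293, plus strand, ETS: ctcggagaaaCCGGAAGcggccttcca
Sdhd, chr9:50603879-50603905, minus strand, ETS in reverse: cgtctcctgcCTTCCGGttcacgcttc
Uqcr11, chr10:80406871-80406897, minus strand, ETS: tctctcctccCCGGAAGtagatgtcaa
Cox6a1, chr5:115348958-115348984, minus strand, ETS in reverse: cccatttccgCTTCCGGcgcgccggtg
Ndufb7, chr8:83566728-83566754, plus strand, ETS: cctagatgacCCGGAAGacactgaagg
Ndufs7, chr10:80249463-80249489, plus strand, YY1: ggccgaggccAAGATGGcggcgctggc
Ndufa3, chr7:3617385-3617411, plus strand, YY1: cgccaagaacAAGATGGccgggagtaa
Whether a core goes with a direction of change was not tested. The windows of Ndufa5, Sdha, Atp5b and Atp5d held none of the 3 cores, which says only that these letters are not in these windows.

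Most members were expressed in every library, at levels that differed widely from gene to gene. Cox6a2, Ndufb4c and Ndufa4l2 fell within the 3 counts that a count of 0 allows in at least 1 library. In FPKM, the authors' counts relative to gene length and library total, the median member had 50.1 over the 6 libraries, 25 members had more than 100 and 6 had less than 1. The highest were Atp5b, the catalytic beta subunit of ATP synthase, at 379.1 FPKM, and Cox4i1, the common isoform of subunit 4 of cytochrome c oxidase, at 374.7. The order of this pair is not secure, since Cox4i1 alone ranged from 345.8 to 431.7 between libraries. Cox6b1 (247 FPKM), Cox8a (240.5) and the alpha subunit Atp5a1 (240.4) followed. The median level per length was 122 FPKM for complex IV, 109.5 for complex V, 74.5 for complex III, 65.7 for complex II and 37.6 for complex I. The 8 complex I assembly factors, which act while the complex is built and do not stay in it, had a median of 3.45 FPKM and a highest value of 9.44 (Ndufaf8). Within complex I the levels ran from Ndufb4c (0.503 FPKM) to Ndufb1 (149), within complex II from the flavoprotein Sdha (49.8) to the membrane anchor Sdhd (74.7), and within complex III from cytochrome c1, Cyc1 (40.6), to the hinge protein Uqcrh (201.5).

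**Figure D1:**
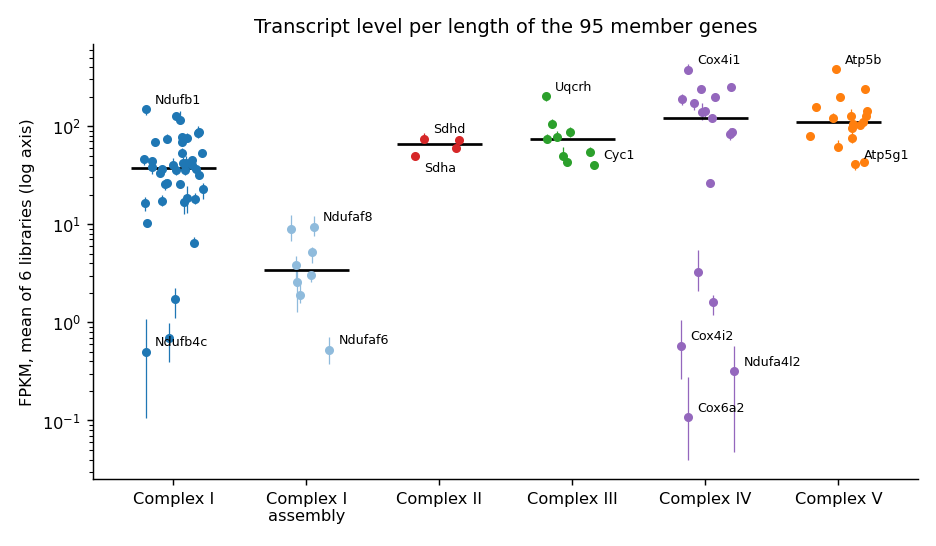
Transcript level of the 95 members in FPKM (log axis) by complex, each point the mean of 6 libraries, with a line from the lowest to the highest library and a black bar at the median of the complex. Complex IV and V genes sit highest (medians 122 and 109.5 FPKM), the assembly factors of complex I lowest (median 3.45), and the tissue-restricted isoforms Cox6a2, Ndufa4l2 and Cox4i2 fall below 1 FPKM.

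Several subunits of complex IV and V come in isoforms, and per length the widely expressed one prevailed in every library. Cox4i1 made up 99.7% to 99.9% of the summed FPKM of the subunit 4 genes. Cox4i2, the isoform known from lung and from the response to low oxygen, had 0.576 FPKM. Cox6a1, the liver-type isoform, made up 99.86% to 99.98% of its pair, and Cox6a2, the heart and muscle isoform, had 7, 1 and 2 counts in wt and 1, 4 and 1 in the libraries labelled ko. Cox6b1 made up 98.0% to 99.1%, beside Cox6b2, known from testis, at 3.29 FPKM. Ndufa4 made up at least 99.5% of the pair with Ndufa4l2, a hypoxia-induced paralog, at 0.317 FPKM. These low isoforms therefore carried little weight in the module. Cox7b2, Cox8b and Cox8c were not found by symbol among the genes counted, so they have no values here.

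The COX7A and ATP synthase c genes divided their output more evenly. Cox7a2l, whose protein joins complexes III and IV into supercomplexes, made up 56.3% to 68.2% of the COX7A sum, Cox7a2 31.0% to 42.9% and the muscle isoform Cox7a1 0.564% to 0.846%. The share of Cox7a2l was 68.2%, 58.2% and 65.9% in wt and 60.4%, 56.3% and 62.3% in the libraries labelled ko, so the groups overlapped. Atp5g1, Atp5g2 and Atp5g3 encode the same mature c subunit with different import sequences, and held 14.4% to 17.1%, 44.3% to 48.6% and 35.1% to 38.8% of their sum. The share of Atp5g1 was 17.1%, 16.9% and 15.4% in wt and 15.2%, 14.4% and 15.1% in the libraries labelled ko, which did not overlap by a narrow gap. The share of Cox7a1 (higher in the libraries labelled ko) and that of Ndufb4 (lower) also did not overlap. Those of the other isoforms given here did. For Cox7a1 the gap lay between 0.731% in wt replicate 1 and 0.741% in ko replicate 2. For Ndufb4 it lay between 96.85% in wt replicate 1 and 96.82% in ko replicate 1. Both were narrow and rest on few counts, 21 to 33 per library for Cox7a1 and 2 to 20 for Ndufb4c. No test was made of shares. Ndufb4 made up 95.1% to 98.6% beside its copies Ndufb4b and Ndufb4c, and Ndufs6 94.8% to 97.5% beside Ndufs6b. Values of such near-identical copies are uncertain, because the counting could have divided their reads.

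Between the groups, 0 of the 93 members tested passed an adjusted p of 0.05 in edgeR, where 0% of all genes did, and 0 passed in DESeq2, where 0.263% of all genes did. Without wt replicate 1, DESeq2 again called 0 members, where 0.659% of all genes passed. At an unadjusted p under 0.05 there were 3 members (3.23%), against 15.2% of all genes tested, and DESeq2 gave 2, against 11% of all genes. The 3 were Ndufs7, with a lower estimate (8.31% of all genes were lower at this threshold), and Ndufaf4 and Ndufa5, with higher ones (6.9% of all genes). Cox6a2 and Ndufb4c were too low to be tested. The sum of the raw counts of all 95 members was 0.703%, 0.647% and 0.619% of the library in wt, and 0.707%, 0.681% and 0.668% in the libraries labelled ko. The means, 0.656% ± 0.0427 (SD, n = 3) and 0.685% ± 0.0199 (SD, n = 3), differed by less than the SD within wt.

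Within the TMM-scaled fit, the intervals of most members bounded a change, but they leave out the choice of scaling. On that choice the sign of the members' median depended, as given below. The 95% interval of the fold change, from the same fit, lay wholly within 2-fold for 86 members (92.5%) against 57.5% of all genes tested, and within 1.5-fold for 73 (78.5%) against 26.2%. The intervals of Cox4i2, Cox6b2, Cox7a1, Ndufa4l2, Ndufaf4, Ndufb4b and Ndufs6b reached beyond 2-fold in at least 1 direction, so that a change of that size lay within their error. The members had a higher median level than other genes (5.69 against 3.93 on the log2 CPM scale). Their median SD of log2 CPM over the 6 libraries was 0.152 against 0.319 for all genes.

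**Figure D2:**
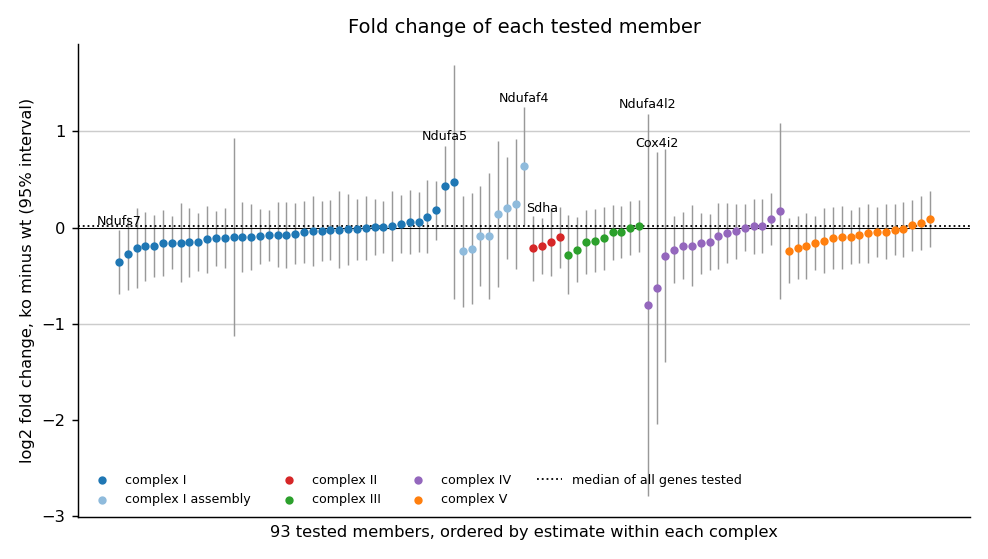
Log2 fold change (libraries labelled ko minus wt, edgeR) of the 93 tested members by complex, with 95% intervals and the median of all genes tested as a dotted line. Of the estimates, 86 have intervals inside 2-fold in either direction, and 24 lie above 0 and 69 below with TMM scaling, a split that turns to 64 and 29 when libraries are scaled by their totals alone.

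The median log2 fold change of the members was -0.085 (0.943-fold), while that of all genes tested was 0.022, and 69 of 93 estimates were lower in the libraries labelled ko, against 47.9% of all genes. The sign depends on the scaling, since with library totals alone the members' median was 0.065 with 29 lower, and that of all genes moved to 0.17. Relative to the median of all genes, the members' median was -0.107 with TMM and -0.109 with library totals, and 77 of 93 lay below it under either scaling. By complex, this offset with TMM was -0.094 (I), 0.0078 (I assembly), -0.19 (II), -0.13 (III), -0.14 (IV) and -0.10 (V). The estimates given by complex further below are TMM values and not offsets from other genes. Without wt replicate 1 the members' median was -0.0086, or -0.040 relative to all genes, with 51 lower and 43 higher. Without ko replicate 2 it was -0.020, or -0.025 relative to all genes. The offset of the members from other genes was thus under 0.05 in size when either of these libraries was left out.

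The pattern over libraries was shared by most members and did not follow the groups. The median deviation of the members from their own means was 0.18, 0.060 and -0.097 in wt replicates 1, 2 and 3, and 0.010, -0.16 and 0.057 in the libraries labelled ko, whereas the median over all genes stayed between 0.0013 and 0.033. Of the 93 members, 56 were highest in wt replicate 1 and 62 were lowest in ko replicate 2, and 47 did both. Wt replicate 3 was below ko replicates 1 and 3, so the ranges of the groups overlapped. The first principal component of the members held 56.4% of their variance, with ko replicate 2 at 3.00 and wt replicate 1 at -1.87 at its ends.

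**Figure D3:**
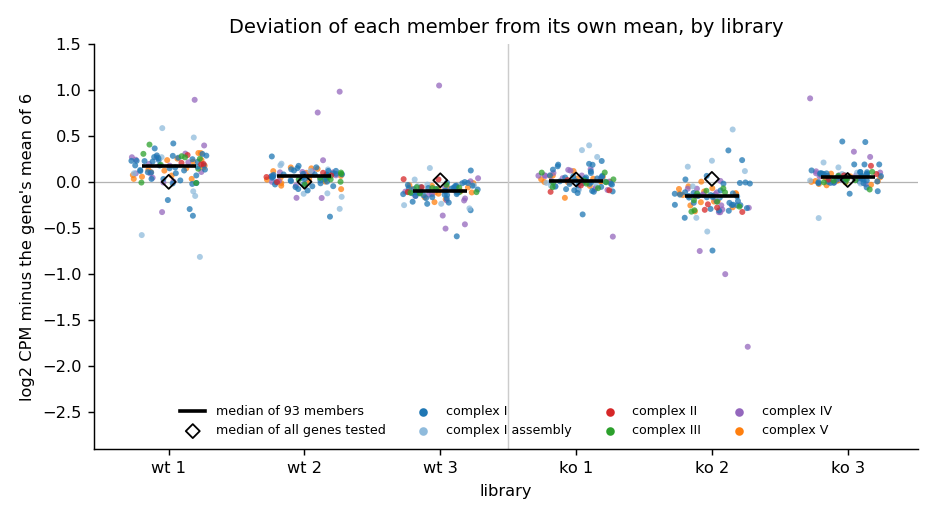
Deviation of each tested member from its own mean log2 CPM in each library, colored by complex, with the members' median as a bar and the median of all genes tested as a diamond. The members' bar is highest in wt replicate 1 (0.18) and lowest in ko replicate 2 (-0.16), and the bars of the groups overlap.

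Complex I takes electrons from NADH through its N and Q modules, whose core subunits carry the flavin and the iron-sulfur clusters. Ndufs7, an iron-sulfur subunit next to the site where ubiquinone binds (NCBI Gene 75406, chromosome 10, 80249105 to 80256794), had 23.5, 20.9 and 20.96 CPM in wt and 17.96, 15.5 and 17.6 in the libraries labelled ko. Each library labelled ko was below each wt library, with a log2 fold change of -0.36 (SE 0.14, adjusted p = 0.328 by edgeR). The separation of Ndufs7 also held relative to the members' median in each library, where its difference was -0.28. The size was -0.30 without wt replicate 1 and -0.21 with library totals alone.

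Other core subunits of complex I had estimates closer to 0. Ndufv1, which binds NADH and the flavin, had 68.7, 55.0 and 54.9 CPM in wt and 57.9, 54.3 and 62.6 in the libraries labelled ko (log2 fold change -0.03, SE 0.14). Ndufs1, the large iron-sulfur subunit, had 49.3, 62.9 and 58.8 against 69.4, 63.3 and 61.2 CPM, so that only wt replicate 2 reached into the range of the libraries labelled ko (0.18, SE 0.13, adjusted p = 0.442 by edgeR). Ndufv2, Ndufs3 and Ndufs8 had estimates of -0.09, -0.02 and -0.15. The intervals of these 5 genes lay within 1.5-fold, the highest upper end being 1.40-fold for Ndufs1 and the lowest lower end 0.678-fold for Ndufs8.

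Among the accessory subunits, which surround the core, Ndufa5 of the Q module (NCBI Gene 68202, chromosome 6, 24518662 to 24527690) had the higher estimate with the smallest p. It had 7.84, 10.3 and 8.18 CPM in wt and 11.9, 11.96 and 11.6 in the libraries labelled ko. The groups did not overlap, and the libraries labelled ko had a mean of 11.8 CPM with an SD of 0.205 (log2 fold change 0.43, SE 0.18, adjusted p = 0.328 by edgeR). Its difference relative to the members' median was 0.51, and its estimate was 0.35 without wt replicate 1. Ndufb7 had 46.4, 43.4 and 40.0 CPM in wt and 39.6, 37.5 and 39.3 in the libraries labelled ko, also without overlap, but the gap of wt replicate 3 to ko replicate 1 was small (-0.16, SE 0.12). Ndufa3 (54.0, 39.9 and 40.1 against 37.6, 33.0 and 40.6 CPM, -0.27) overlapped. Ndufab1, the mitochondrial acyl carrier protein, was among the steadiest members, at 13.5 to 15.2 CPM in all 6 libraries. Over the 39 tested subunits of complex I the median was -0.07 and the range -0.36 to 0.47, the upper end being Ndufb4b at 0.187 to 0.438 CPM, with an interval from -0.74 to 1.69.

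The assembly factors of complex I spread more widely, and were also the lower expressed group. Ndufaf4, which binds early assembly intermediates of the Q module (NCBI Gene 68493, chromosome 4, 24898083 to 24905001), had 4.92, 7.95 and 8.42 CPM in wt and 11.1, 12.9 and 9.14 in the libraries labelled ko. The groups did not overlap, with wt replicate 1 well below the rest (log2 fold change 0.64, SE 0.26, adjusted p = 0.328 by edgeR). Without wt replicate 1 the estimate was 0.43, and relative to the members' median in each library the groups overlapped. Ndufaf2 (0.24), Ndufaf5 (0.20) and Ndufaf6 (0.14) had higher estimates, and Ndufaf1 (-0.09), Ndufaf8 (-0.09), Ndufaf3 (-0.22) and Ndufaf7 (-0.25) lower ones, with intervals that all crossed 0.

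**Figure D4:**
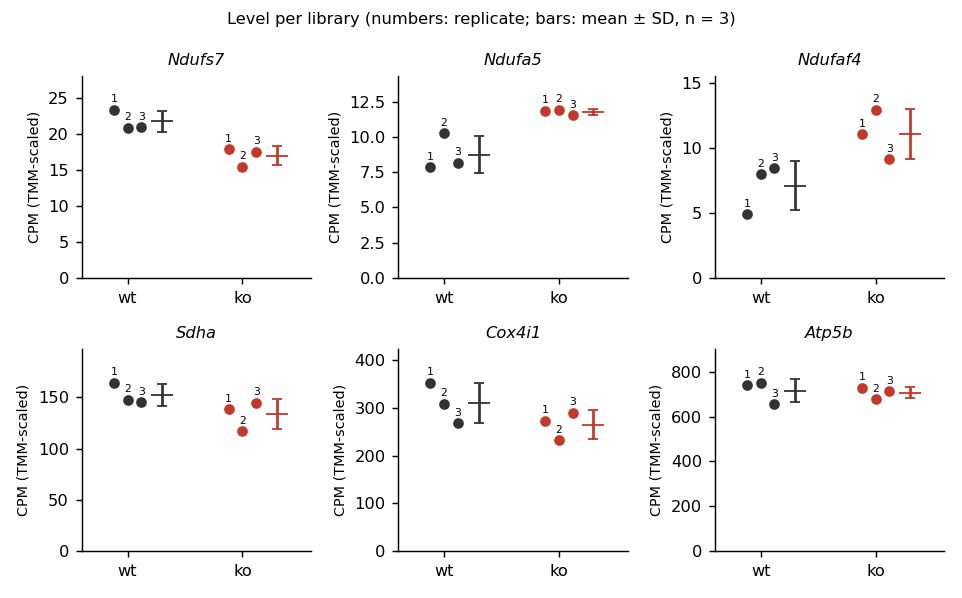
TMM-scaled CPM of 6 members in each library, numbered by replicate, with mean ± SD (n = 3) beside each group, on axes that start at 0. Ndufs7 is lower in each library labelled ko (15.5 to 17.96 against 20.9 to 23.5 CPM), Ndufa5 and Ndufaf4 are higher in each, Sdha differs by a narrow gap, and Cox4i1 and Atp5b overlap.

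All 4 subunits of succinate dehydrogenase had lower estimates with TMM scaling, between -0.10 and -0.21, with a median of -0.17. Sdha, the catalytic flavoprotein, had 164, 148 and 145 CPM in wt and 139, 117 and 145 in the libraries labelled ko. The groups of Sdha did not overlap, but wt replicate 3 and ko replicate 3 rounded to the same value (log2 fold change -0.19, SE 0.13, adjusted p = 0.413 by edgeR), and with library totals alone the estimate was -0.045. Sdhb, the iron-sulfur subunit, had 88.6, 82.9 and 74.3 against 72.6, 61.7 and 87.3 CPM, and Sdhd, a membrane anchor, 117, 95.7 and 97.8 against 88.9, 77.6 and 102 CPM. In both, ko replicate 3 was within the wt range. Sdhc, the other anchor, had the smallest difference (-0.10).

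Most complex III genes had lower estimates with TMM scaling, and none separated the groups. Uqcrfs1, the Rieske iron-sulfur protein, had 126, 110 and 97.5 CPM in wt and 97.4, 82.5 and 104 in the libraries labelled ko (log2 fold change -0.23, SE 0.15). Uqcr11 had 28.8, 22.6 and 20.9 against 21.7, 17.4 and 20.5 CPM (-0.28). Cyc1, whose heme receives electrons from the Rieske protein, had 69.5, 64.2 and 58.4 against 64.2, 58.9 and 63.0 CPM (-0.05). The core proteins Uqcrc1 and Uqcrc2 had estimates of -0.13 and -0.15, and Uqcrb and Uqcr10 of 0.02 and 0.00. The median of the 9 genes was -0.11.

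In complex IV the most abundant member, Cox4i1 (NCBI Gene 12857, chromosome 8, 120668225 to 120674209), had 354, 309 and 269 CPM in wt and 274, 232 and 291 in the libraries labelled ko. Wt replicate 3 was below ko replicates 1 and 3, and the log2 fold change was -0.23 (SE 0.15, adjusted p = 0.412 by edgeR). Cox5a and Cox5b, which bind the outside of the catalytic core, had estimates of -0.15 and -0.05, Cox6a1 of -0.16, Cox6b1 of -0.19, Cox7a2l of -0.19, Cox7a2 of 0.09, Cox7b of 0.02 and Cox8a of -0.09. Ndufa4 had the smallest spread of all members, with 62.5, 61.1 and 58.1 CPM in wt and 63.6, 57.6 and 60.7 in the libraries labelled ko (0.0014, interval -0.25 to 0.25). Its paralog Ndufa4l2 had the largest spread, with 0.225, 0.536 and 0.668 against 0.178, 0.0477 and 0.602 CPM. Ko replicate 2 was there below the level that a count of 0 allows, and no fold is given for this pair of groups. Cox4i2 (0.167 to 0.817 CPM), Cox6b2 (1.10 to 3.54 CPM) and Cox7a1 (0.561 to 0.903 CPM) overlapped between groups. The median of the 16 tested genes of complex IV was -0.12.

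Of the complexes, ATP synthase varied least between libraries (median SD of log2 CPM 0.115). Atp5b (NCBI Gene 11947, chromosome 10, 128083307 to 128090388) had 740, 752 and 657 CPM in wt and 729, 678 and 715 in the libraries labelled ko, with a log2 fold change of -0.02 and an interval of 0.810- to 1.204-fold. Atp5a1 had 652, 597 and 544 against 583, 529 and 609 CPM (-0.06, interval 0.778- to 1.19-fold). The c subunit genes Atp5g1, Atp5g2 and Atp5g3 had estimates of -0.13, 0.03 and 0.05. Atp5d, the delta subunit of the central stalk, had 162, 139 and 125 against 115, 109 and 137 CPM and the lowest estimate of complex V (-0.24, SE 0.15, adjusted p = 0.389 by edgeR). All 17 genes of the complex had intervals within 1.5-fold. Atpif1, the inhibitor that blocks reverse action of the synthase and is no member by symbol, had 51.7, 50.7 and 49.0 against 56.5, 48.1 and 55.1 CPM (0.08).

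Counted over both directions, separation of the groups was scarcer among the members than among genes at large. The groups did not overlap for 5 of 93 members (5.38%), with Ndufa5 and Ndufaf4 above and Ndufb7, Ndufs7 and Sdha below, whereas 25.9% of all genes tested did not overlap, 13.3% above and 12.6% below. This count moved with the libraries used, as did that over all genes. It was 33 (35.5%) without wt replicate 3, with 2 above and 31 below, where 42.3% of all genes did not overlap, 21.9% above and 20.4% below. Separation below wt was in that setting more frequent among the members than among all genes. It was 18 (19.4%) without ko replicate 3, with 3 above and 15 below, where 49.8% of all genes did not overlap. With library totals alone it was 17 (18.3%), with 16 above and 1 below, where 25.4% of all genes did not overlap, 18.6% above and 6.87% below. When each member was set against the median of the members in the same library, the median SD over libraries dropped from 0.152 to 0.0879 on the log2 scale. On this scale, which compares subunits with each other, Ndufa5, Atp5g2 and Atp5g3 lay above wt in every library labelled ko, by 0.51, 0.11 and 0.13. Ndufs7 (-0.28), Uqcr11 (-0.19), Atp5d (-0.16), Uqcrfs1 (-0.15), Cox4i1 (-0.15), Ndufb1 (-0.13), Sdha (-0.12) and Ndufb10 (-0.11) lay below. Of these 11 differences, 9 were under 0.2 in size, and values relative to the median of all genes separated the groups for 26% of all genes tested.

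The 13 subunits encoded in mitochondrial DNA belong to the same complexes and had a median log2 fold change of 0.07, which was -0.02 without wt replicate 1. None of the 13 passed the adjusted threshold, in edgeR or DESeq2. The groups did not overlap for 3 (23.1%), each higher in the libraries labelled ko. Of all genes tested, 25.9% did not overlap and 13.3% lay above. ATP6, of the proton channel of complex V, had 22.2, 28.4 and 25.7 CPM in wt and 44.4, 35.3 and 32.7 in the libraries labelled ko (0.56, SE 0.17, adjusted p = 0.328 by edgeR). COX2 had 28.1, 34.8 and 33.8 against 50.6, 42.8 and 38.5 CPM (0.45), and ATP8 had 0.703, 1.01 and 1.07 against 1.35, 1.19 and 1.29 CPM (0.46). COX1, the most abundant of them, overlapped, with 10140, 11725 and 11661 against 13165, 10710 and 10655 CPM, and ND6, the gene on the opposite strand, varied from 1.07 to 7.19 CPM within wt. ATP6, COX2 and ATP8 lay far below not only COX1 but also ND4 (1098 to 1498 CPM) and CYTB (1759 to 3015 CPM). COX3 was also low, at 20.0 to 29.7 CPM, and overlapped between groups. Reads of these genes can be shared with their copies in the nuclear genome. Whether the low genes lost reads in this way was not tested, so their values and separation are uncertain. Taken as a share of all counts, the 13 genes made up 1.57%, 1.94% and 1.93% in wt and 2.34%, 2.18% and 1.80% in the libraries labelled ko.

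Other lists of the pathway also had 0 genes past the adjusted threshold in edgeR. DESeq2 without wt replicate 1 called 1, the glucose transporter Slc2a1 of the hypoxia response list (log2 fold change -0.70, adjusted p = 0.0259), and DESeq2 on all 6 libraries called 0. At an unadjusted p under 0.05, where 15.2% of all genes tested lie, the lists below held 7.32%, 8.33%, 14.3%, 11.8% and 20% of their tested genes, in the order given. Of 41 assembly factors outside the members, 2 had higher and 1 a lower estimate at an unadjusted p under 0.05, with a median of 0.05. Cox20, a chaperone of COX2 protein, had 7.68, 7.89 and 8.98 CPM in wt and 13.96, 13.6 and 12.8 in the libraries labelled ko (0.72, SE 0.17, adjusted p = 0.328 by edgeR), and Coa5 had -0.32. Of 24 electron carriers and nucleotide exchange genes, 1 was higher (the ADP/ATP carrier Slc25a4, 0.35) and 1 lower (the coenzyme Q kinase Coq8b, -0.41) at that threshold, with a median of -0.05. Of 14 tested regulators of mitochondrial biogenesis, 1 was higher (the mitochondrial DNA helicase Twnk, 0.49) and 1 lower (the nuclear receptor Esrra, -0.29), with a median of 0.02. Of 17 tricarboxylic acid cycle genes, 1 was higher (Suclg2, 0.36) and 1 lower (Ogdh, 243, 195 and 186 against 136, 129 and 159 CPM, -0.55), with a median of -0.05. Of 15 hypoxia response genes, 0 were higher and 3 lower, among them Slc2a1 (-0.62 in edgeR), with a median of -0.15, and Adm had an estimate of 0.94. With library totals alone, where the median of all genes was 0.17, the medians of the assembly factors, carriers, regulators, cycle and hypoxia genes were 0.20, 0.093, 0.16, 0.093 and -0.0015, so the sign of the carriers and of the cycle depends on the scaling.

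The ribosomal proteins served as another set of abundant housekeeping genes. The 84 tested cytosolic ribosomal protein genes had a median of 0.07, and the groups did not overlap for 27 of them (32.1%), all higher in the libraries labelled ko, whereas 13.3% of all genes tested lay above (Rpl12, 0.36, and Rps9, -0.20, had the smallest p in each direction). The 78 mitochondrial ribosomal protein genes had a median of -0.0020, with 13 above and 4 below, or 21.8% against 25.9% of all genes tested (Mrpl50, 0.62, and Mrpl43, -0.40). With library totals alone these medians were 0.23 and 0.15, against 0.17 for all genes.

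**Figure D5:**
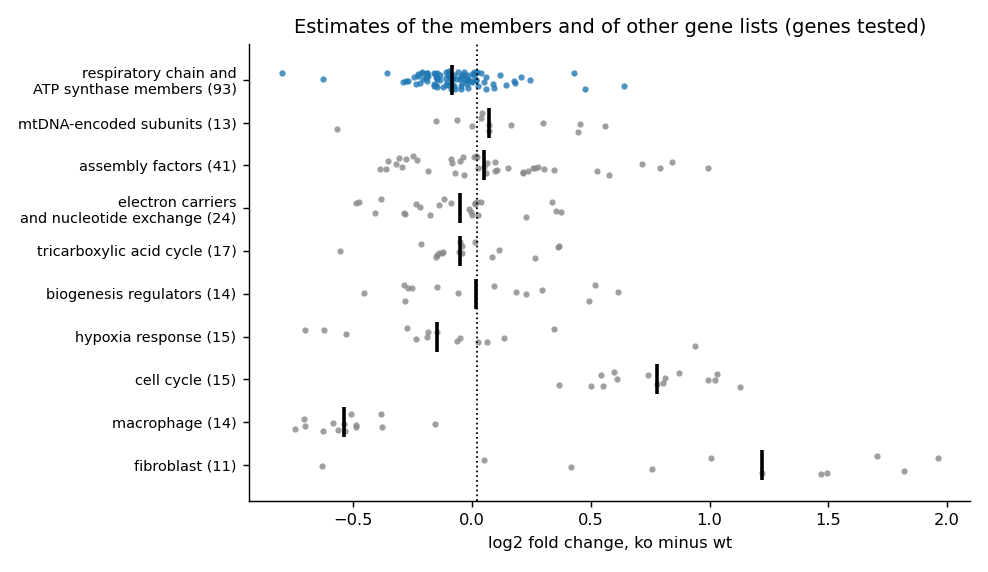
Log2 fold changes (libraries labelled ko minus wt, TMM scaling) of the 93 members and of the genes of 9 other lists, with the median of each list as a bar and that of all genes tested as a dotted line. The members spread little around a median of -0.085 (0.065 with library totals alone), while macrophage markers sit lower (-0.54) and cell cycle (0.78) and fibroblast (1.22) genes higher. Without wt replicate 1 the macrophage, cell cycle and fibroblast medians were -0.49, 0.37 and 0.90.

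Markers of cell types also differed between the libraries. The summed level of the 14 macrophage markers was 28281, 26617 and 22348 CPM in wt and 17804, 13545 and 22875 in the libraries labelled ko. All 14 had lower estimates, none past the adjusted threshold, and the groups did not overlap for 10 (71.4%, against 25.9% of all genes tested), Apoe among them (-0.71). All 14 were lowest in ko replicate 2, as was the members' median. In wt replicate 1, where the members' median was highest, 6 of the 14 were highest, and the high sum there rested on Lyz2 (14144 CPM, against 10371 in wt replicate 2). Without Lyz2, a setting chosen after seeing the data, the sums were 14137, 16246 and 12994 CPM in wt and 10305, 7878 and 13177 in the libraries labelled ko. In bulk RNA, fewer cells of a type and less RNA per cell cannot be told apart.

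The summed fibroblast markers (11 genes, median 1.22) were 44.5, 503 and 313 CPM in wt and 722, 621 and 375 in the libraries labelled ko, with Col1a2 at 0.422, 0.761 and 0.241 against 2.59, 2.41 and 0.547 CPM and Acta2 at -0.63. Col1a1 was low too, at 0.561 to 5.52 CPM over the libraries. The median level of the list was 2.84 on the log2 CPM scale. The fibroblast sums thus rest mainly on the higher genes of the list and do not measure fibroblast content. The sum of the 15 cell cycle genes (median 0.78, all estimates higher) was 267.4, 638 and 546 CPM in wt and 800.5, 922 and 643 in the libraries labelled ko, with Pcna at 0.36. Both sums were lowest in wt replicate 1, where the members' median was highest. Without that library the fibroblast median was 0.90 and the cell cycle median 0.37. The groups did not overlap for 2 fibroblast genes (18.2%), 1 above and 1 below, and for 8 cell cycle genes (53.3%), all above. Of all genes tested, 25.9% did not overlap and 13.3% lay above. The T cell list (8 genes tested, median 1.30, Cd3d 1.52) ran from 32.3 to 118 CPM in wt and from 94.6 to 262 in the libraries labelled ko, and the NK cell list (7, median 0.95, Gzmb 1.09) from 61.6 to 112 and from 94.3 to 224. Both had their highest sum in ko replicate 2, where the members' median was lowest. The neutrophil list (7, median -0.52, Csf3r -0.83) ran from 1806 to 2018 CPM in wt and from 795 to 1579 in the libraries labelled ko.

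The remaining lists differed less clearly. The epithelial or carcinoma list (5 tested, median 0.56, Krt8 1.25, Krt7 -1.03) ran from 36.7 to 138 CPM in wt and from 129 to 192 in the libraries labelled ko, with Epcam at 2 to 30 counts and Krt19 and Cldn4 at 0 in 5 of the 6 libraries. The endothelial list (6, median 0.18, Egfl7 0.80, Pecam1 -0.32) ran from 34.3 to 42.7 and from 32.3 to 36.2 CPM, with Tek at 0 counts in wt replicate 1. The B cell list (5, median 0.00045, Pax5 0.50, Cd79b -0.32) ran from 6.26 to 36.1 and from 11.8 to 58.0, and the dendritic cell list (7, median -0.034, Flt3 -0.57, Zbtb46 0.17) from 214 to 367 and from 238.6 to 339. No gene of these lists passed the adjusted threshold in edgeR. The part of cell composition in the members' levels was not tested.

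Neighboring genes limit some of these values. Of 91 members found in the GENCODE M21 annotation of GRCm38, 41 overlap another annotated gene and 28 a protein-coding one, and whether the counting used strand is not given in the sources used here. Among the named members these include Ndufs1 (with Eef1b2), Ndufs3 (Kbtbd4), Ndufa3 (Tfpt), Ndufa4l2 (Shmt2), Ndufaf2 (Smim15), Cox4i1 (Emc8), Atp5d (Cbarp) and Atp5a1 (Haus1). Without strand, reads of such a pair cannot be told apart. Ndufs7, Ndufa5, Ndufaf4, Ndufb7 and Sdha, the members whose groups did not overlap, share no stretch with a protein-coding gene in this annotation.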

How the data were processed

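RNA of 6 mouse libraries, 3 titled wt and 3 titled ko, was sequenced. According to the methods of the study, cDNA of sorted TAMs was made with a SMARTer kit for low input and sequenced as paired ends on a NovaSeq, whereas the labels describe TRIzol extraction of tumor tissue and a small RNA library. The difference was not resolved. The authors deposited raw counts per gene, with no normalization, and FPKM, which equal those counts divided by gene length and library total. The submitters' processing notes name the build mm10, and the aligner, the counting tool and the use of strand are not given in the sources used here. Total counts were 36550775 to 38147320 per library.

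The deposited counts were fitted in edgeR 4.0.16 (R 4.3.3) with filterByExpr, TMM factors, glmQLFit and glmQLFTest over all 13884 genes passing the filter, with Benjamini-Hochberg adjustment and a threshold of 0.05. A fold change is the libraries labelled ko over wt, its SE is the size of that change on the log2 scale over the root of F, and its 95% interval uses the same degrees of freedom. CPM are TMM-scaled, and log2 CPM used a prior count of 2. The fit was tested on simulated data, where 42 of 92 members given a log2 fold change of 1 in size passed the threshold (45.7%). Replicate numbers did not pair the libraries (correlations of deviations -0.24, 0.060 and -0.34). No pair of libraries within a group agreed within sampling noise (chi-square of 31.1 to 139 per gene). Alternatives were DESeq2 1.42.0, limma 3.58.1 on log2 of the deposited FPKM plus 1 or 0.1, other scalings and filters, a block for the replicate number, and each library left out.

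Named genes were the core subunits, subunits with isoforms, the 6 members with the smallest p in each direction, the highest and lowest member by FPKM in each complex, the members with the largest and smallest spread, Npm1 and the sorting markers, and the gene with the smallest p in each direction in each list. The lists were mitochondrial DNA subunits, assembly factors, electron carriers and nucleotide exchange, biogenesis regulators, tricarboxylic acid cycle, hypoxia response, cell cycle, cytosolic and mitochondrial ribosomal proteins and 9 cell types. Members outside the rule (Ndufb7, Atp5g2, Atp5g3, Ndufb10 and others given by an estimate) are named because a count or a complex is described by them, and were chosen after their values were seen. The Rps6k kinase genes, which the ribosomal symbol rule also takes in, were left out. The values of 1 core subunit are not reported here. The members and lists were chosen with earlier results of these data known. Coordinates are RefSeq's on GRCm38.p6, matched by NCBI Gene number for all 95 members.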

Additional observations from a re-analysis of the deposited data

How the results depend on the processing

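No member passed an adjusted p of 0.05 in edgeR, DESeq2 or limma under any alternative run, with libraries left out or not. Over all genes, DESeq2 called 36 and, without wt replicate 1, 78, against 0 in edgeR. The median log2 fold change of the members changed sign, to 0.065, with library totals alone. It also did so in limma, to 0.066 and 0.069 on log2 FPKM plus 1 and plus 0.1. All of these runs scale libraries by their totals alone. When each library was left out, the median ranged from -0.15 to -0.0086. The members whose groups did not overlap numbered 3 with upper quartile scaling, 17 with library totals alone, 3 among genes with at least 10 counts in every library and 17 in limma with either pseudocount, where 25.5%, 25.4%, 26.4% and 25.4% of all genes did not overlap. They numbered 5 to 33 when each library was left out, where 29.7% to 49.8% of all genes did not overlap. The difference in the members' share was 0.0291 percentage points of counts and 0.0631 of summed FPKM, both higher in the libraries labelled ko. With the replicate number as a block, edgeR gave 0 members, 0 of all genes and a median of -0.080, with 0 members at an unadjusted p under 0.05 against 3 without the block, and the block changed no other call. Single estimates that changed sign are given next. With RLE scaling the log2 fold change was -0.014 for Ndufa4. With upper quartile scaling the log2 fold change was 0.0055 for Ndufv1, 0.014 for Ndufs3 and 0.017 for Atp5b. With library totals alone the log2 fold change was 0.12 for Ndufv1, 0.056 for Ndufv2, 0.13 for Ndufs3, 0.11 for Cyc1, 0.099 for Cox5b, 0.091 for Atp5a1, 0.13 for Atp5b, 0.056 for Cox8a, 0.065 for Ndufaf8, 0.10 for Uqcrh, 0.017 for Atp5g1, 0.027 for Ndufs6b and 0.079 for Ndufab1. With no filter on low counts the log2 fold change was -0.012 for Ndufa4. With a filter of at least 10 counts in every library the log2 fold change was 0.0076 for Ndufs3 and 0.011 for Atp5b. In DESeq2 the log2 fold change was -0.0050 for Cox7b and -0.021 for Ndufa4. In DESeq2 without wt replicate 1 the log2 fold change was 0.057 for Ndufv1, 0.19 for Cox6b2, -0.0043 for Cox7b, -0.0023 for Ndufa4, 0.16 for Ndufaf8 and 0.012 for Uqcrh. In limma on log2 FPKM plus 1 the log2 fold change was 0.12 for Ndufv1, 0.055 for Ndufv2, 0.12 for Ndufs3, 1.77e-04 for Ndufs8, 0.10 for Cyc1, 2.24e-04 for Cox5a, 0.10 for Cox5b, 0.092 for Atp5a1, 0.13 for Atp5b, 0.057 for Cox8a, 0.087 for Ndufaf8, 0.11 for Uqcrh, 0.022 for Atp5g1 and 0.066 for Ndufab1. In limma on log2 FPKM plus 0.1 the log2 fold change was 0.12 for Ndufv1, 0.057 for Ndufv2, 0.13 for Ndufs3, 3.68e-04 for Ndufs8, 0.11 for Cyc1, 3.12e-04 for Cox5a, 0.10 for Cox5b, 0.092 for Atp5a1, 0.13 for Atp5b, 0.057 for Cox8a, 0.099 for Ndufaf8, 0.11 for Uqcrh, 0.022 for Atp5g1 and 0.075 for Ndufab1. When each library was left out in turn, it ranged from -0.10 to 0.080 for Ndufv1, -0.11 to 0.038 for Ndufs3, -0.24 to 0.0030 for Ndufs8, -0.12 to 0.014 for Cyc1, -0.17 to 0.024 for Cox5b, -0.14 to 0.0052 for Atp5a1, -0.093 to 0.014 for Atp5b, -0.58 to 0.21 for Cox6b2, -0.25 to 0.18 for Ndufaf8, -0.13 to 0.036 for Uqcrh, -0.40 to 0.18 for Ndufs6b, -0.059 to 0.077 for Cox7b, -0.044 to 0.029 for Ndufa4, -0.042 to 0.33 for Ndufaf6 and -0.19 to 0.012 for Cox8a. Where no value or construction shows it, the cause was not tested. No alternative run turned the direction of Ndufs7, Ndufa5 or Ndufaf4. These genes were picked by their p in these data, and their groups did not overlap. Leaving out a library could thus hardly turn them, and the stable direction is no separate support.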
